A study of Mus musculus with 6 samples.

Results

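*Fnbp4*, *Fblim1*, *Dglucy*, *Slc15a2* and *Fam214a* were the 5 genes with the largest rise of spliced reads after knockdown of *Son* in mouse embryonic stem cells. They were 5 of the 186 genes called higher, of 9474 tested and 9844 with an intron listed in every total RNA library. They were picked by their log2 fold change, among called genes with a mean of at least 100 spliced reads, so the rise itself is what chose them and is given here as a description with no test. What follows is how far it ran over their introns, their transcripts and the replicates.

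RNA was measured in E14 embryonic stem cells of a 129/Ola background, grown on gelatin in serum with leukemia inhibitory factor, with no genotype difference between the groups. Control cells received a control siRNA and knockdown cells an siRNA against *Son*, both carried by a cationic lipid, and RNA was taken 24 h later. Short reads came from total RNA depleted of ribosomal RNA, with 2 libraries per group, and Nanopore long reads from polyadenylated RNA, with 1 cDNA library per group. The labels name the material of knockdown replicate 1 as the source of both long-read libraries, the control included, so the source of the long-read control is unclear. Nothing in the labels says that replicates came from separate cultures, so the spread between them may be technical.

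SON is a large nuclear protein of the speckles, the bodies that store splicing factors, and is known to help the spliceosome remove introns with weak splice sites. When an intron is removed, sequencing reads from the RNA are split across the exon junction, and when it is kept, reads run unsplit from exon into intron. The 5 genes belong to no common pathway. *Fnbp4* codes for a WW-domain protein that binds the proline-rich part of formins, the factors that nucleate actin filaments. *Fblim1* codes for migfilin, a LIM-domain adaptor that links filamin and kindlin at integrin adhesions. *Dglucy* codes for D-glutamate cyclase, a mitochondrial enzyme that converts D-glutamate to 5-oxo-D-proline. *Slc15a2* codes for PEPT2, a proton-coupled carrier of small peptides, and *Fam214a* codes for a homologue of the fly protein Atossa.

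The exon junctions below are those of the coding introns with the largest and the smallest tested rise in each gene, and of *Fnbp4* intron 8 and *Fam214a* intron 6, whose splicing efficiency is described further on. Each line gives 15 coding bases on either side of the removed intron, 5′ to 3′ on the gene's strand, from the GENCODE M21 transcripts named further on. The capitals mark the last 3 bases of the upstream exon and the first base of the downstream exon, the exon letters that flank the splice.
Fnbp4 intron 7: ttggaaaggaaaAAGGcagagttacgagcc
Fnbp4 intron 8: aaaatggagaaaCTGCaattggtgctgaag
Fnbp4 intron 13: gctgtaaccagcCAGAgtctagttgattct
Fblim1 intron 3: agctctccaatgGAGGatgctctctcccac
Fblim1 intron 6: gaaccctgctacCAGGatactctggagaag
Dglucy intron 7: acatcggtgaccCAGGtcttttgggaattg
Dglucy intron 9: ttgccgtagaccCAGGgaaccgaggaatcg
Slc15a2 intron 10: cttttggaccaaCAGGgctcacggtggact
Slc15a2 intron 19: tttgtgatcactAATAtcaccaaccggggt
Fam214a intron 3: gacaagctggccCAGTgtcgccaagccaga
Fam214a intron 5: aaacattctttaCAGAatcagtgctgcgga
Fam214a intron 6: agcgcagacatgTTGAggactacactgaaa

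The 4 total RNA libraries held 10556187 to 16012286 split reads at 5′ junctions, and the long-read libraries held 3080426 reads in the control and 1874851 in the knockdown. *Son* itself went from 4376 and 3251 spliced reads to 1380 and 1061, and its long reads went from 217 to 37 in the same order, so the targeted gene was lower in each library labelled as knockdown. Of 12 pluripotency markers 11 had introns in every total RNA library, with summed levels of 5071 to 5163 CPM in controls and 4865 to 5102 CPM in the knockdown, *Pou5f1* holding the largest part. Of these 11, 9 had a log2 fold change below 0, *Fgf4* was called lower (−0.39) and *Tfcp2l1* higher (0.23). Of 8 primitive endoderm markers 3 were measured. Their sums were 574 and 576 CPM in controls against 619 and 625 CPM in the knockdown, nearly all of it *Lama1*. In the long reads 5 of the 8 were detected. *Lama1* had 58 reads in the control and 38 in the knockdown, *Gata4* 13 and 4, *Dab2* 13 and 7, *Sox7* 5 and 3 and *Pdgfra* 0 and 1. *Gata6*, *Sox17* and *Foxa2* had 0 long reads in either library. Of 6 mesoderm and neural markers 3 were measured, at 5.76 and 7.83 CPM in controls and 7.25 and 8.66 CPM in the knockdown. Of 7 fibroblast markers 1, *Thy1*, was measured, at 1.64 and 1.88 CPM in controls and 1.16 and 2.17 CPM in the knockdown. *Thy1* was also the 1 marker of the 7 with long reads, 5 in the control and 8 in the knockdown. *Col1a1*, *Col1a2* and *Col3a1* had 0 long reads.

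*Fnbp4* (ENSMUSG00000008200, chromosome 2, plus strand) had 184 and 189 CPM of spliced reads in controls and 323 and 381 CPM in the knockdown, where CPM is reads scaled to the library's total of spliced reads with TMM factors. The group levels were 187 ± 3.49 and 352 ± 41.4 CPM (SD, n = 2 each), a log2 fold change of 0.91 (standard error 0.084). Both knockdown libraries lay far above both controls, and knockdown replicate 2 was the highest. In these bulk samples, fewer cells of a type and less RNA per cell cannot be told apart, and the same holds for more of either.

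*Fblim1* (ENSMUSG00000006219, chromosome 4, minus strand) was the most abundant of the 5, with 303 and 294 CPM of spliced reads in controls and 489 and 578 CPM in the knockdown. Its log2 fold change was 0.84 (standard error 0.080), with group levels of 299 ± 6.51 and 534 ± 63.0 CPM (SD, n = 2 each). The groups did not overlap, and the gap between them was wider than the difference between the 2 libraries of either group. *Fblim1* was also the last gene inside the choice, and the 2 genes just outside it, *Rab12* and *Ceacam20*, had log2 fold changes of 0.83 each. A further 10 genes were called higher with as large a change but had a mean under 100 reads.

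*Dglucy* (ENSMUSG00000021185, chromosome 12, plus strand) was scarce, with 94 and 58 spliced reads in controls against 161 and 164 in the knockdown. These came to 6.08 and 5.60 CPM against 10.9 and 15.8 CPM, a log2 fold change of 1.17 (standard error 0.227), the largest of the 5. The groups did not overlap, although the knockdown replicates differed from each other by almost as much as replicate 1 differed from the controls. *Slc15a2* (ENSMUSG00000022899, chromosome 16, minus strand) had 114 and 105 reads in controls against 247 and 210 in the knockdown. Its levels were 7.37 and 10.1 CPM against 16.7 and 20.2 CPM, a log2 fold change of 1.09 (standard error 0.200), again with no overlap. *Fam214a* (ENSMUSG00000034858, chromosome 9, plus strand) had 239 and 134 reads in controls against 333 and 311 in the knockdown. Its levels were 15.5 and 12.9 CPM against 22.6 and 29.9 CPM, a log2 fold change of 0.87 (standard error 0.174), and the lower knockdown library still lay above the higher control. Annotated pseudogenes overlap *Dglucy*, *Fnbp4* and *Slc15a2* on the opposite strand. Whether reads were counted by strand is not given in the sources used here, so reads of such partners cannot be told apart from those of the 3 genes.

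**Figure D1:**
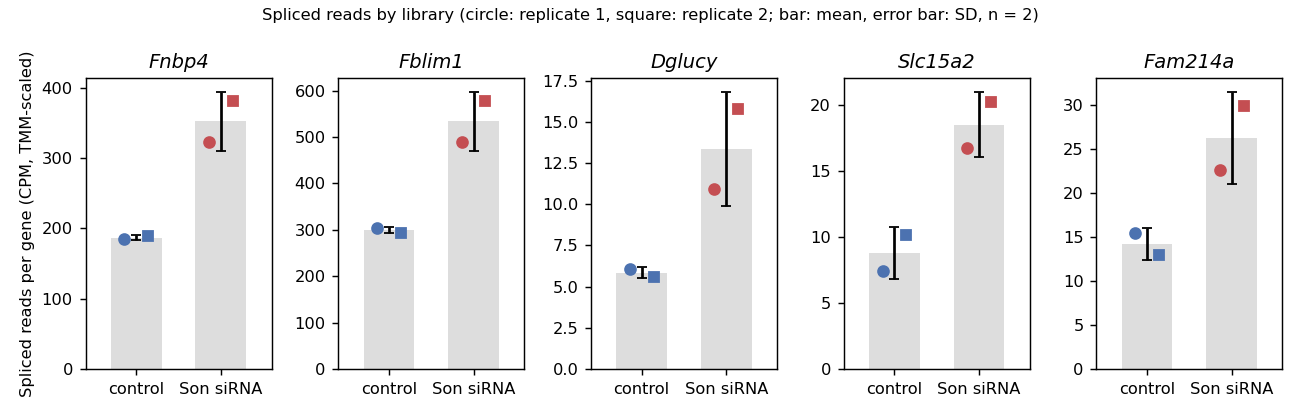
Spliced reads of the 5 genes (vertical axes, CPM after TMM scaling, each from 0) in the control and Son siRNA total RNA libraries; points are libraries (circles replicate 1, squares replicate 2), bars are means and error bars the SD of 2 libraries. In every panel both knockdown points lie above both control points, and knockdown replicate 2 lies above replicate 1, as in Fnbp4 with 381 against 323 CPM.

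All 5 genes were called higher, as the choice required. Over all genes, 1.96% of 9474 were called higher and 6.76% lower (edgeR quasi-likelihood test, adjusted p under 0.05), and since the choice used this contrast nothing is read from these shares. A fit without 1 library leaves 1 library in a group, so its spread comes from the other group alone. Only log2 fold changes are therefore given from these 4 fits, and no count of calls. They were smallest without knockdown replicate 2 in *Fnbp4* (0.79), *Fblim1* (0.71), *Dglucy* (0.89) and *Fam214a* (0.66). In *Slc15a2* the log2 fold change was smallest without control replicate 1 (0.86). Knockdown replicate 2 was above replicate 1 in 5 of 5 genes. The same order was seen in 73.1% of the 186 genes called higher and in 50.0% of all 9474 tested genes.

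Per intron, which allows levels to be compared between genes with different numbers of introns, *Fblim1* went from 42.7 to 76.2 CPM per intron and *Fnbp4* from 14.4 to 27.1. *Fam214a* went from 1.78 to 3.28 CPM per intron, *Dglucy* from 1.46 to 3.34 and *Slc15a2* from 1.25 to 2.64. The order of control levels was therefore *Fblim1*, *Fnbp4* and then the other 3 genes, of which *Fam214a* lay above *Dglucy* in both control libraries and *Dglucy* and *Slc15a2* overlapped. Among the 9474 tested genes, the control level per intron of *Fblim1* stood at percentile 93.7 and that of *Fnbp4* at 75.6. The scarcer genes stood at 11.5 (*Fam214a*), 6.72 (*Dglucy*) and 4.11 (*Slc15a2*), so the 5 genes came from both ends of the range of abundance.

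The rise ran over nearly all introns of the 5 genes. At least 1 library listed 50 introns of these genes, every library listed 39, and both knockdown libraries were above both controls in 37 of these 39. Over all 68322 introns listed in every library that pattern was found in 18.6%, and, as the choice summed these same reads, nothing is read from the difference. By gene, the pattern held in 13 of 13 introns of *Fnbp4*, 7 of 7 of *Fblim1*, 4 of 4 of *Dglucy*, 8 of 8 of *Fam214a* and 5 of 7 of *Slc15a2*. The exceptions were *Slc15a2* introns 8 and 10, where knockdown replicate 1 lay within the control range. Intron 8 had 0.517 and 0.773 CPM in controls against 0.745 and 1.35 CPM in the knockdown. Intron 10 had 1.03 and 1.16 CPM in controls and 1.15 and 3.08 CPM in the knockdown, and both introns rested on 8 to 32 reads per library. Counted at the 3′ junction instead of the 5′ junction, the pattern held in 36 of the 39.

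All 38 introns that passed the filter on low counts had a log2 fold change above 0, from 0.36 to 1.66; the intron below the filter was *Slc15a2* intron 8. The medians were 0.91 in *Fnbp4*, 0.83 in *Fblim1*, 1.08 in *Dglucy*, 1.12 in *Slc15a2* and 0.95 in *Fam214a*. The introns of *Fblim1* were the most alike, from 0.63 to 0.87, and those of *Dglucy* the least, from 0.42 to 1.66. Taken singly, 20 of the 38 introns were called higher, 10 in *Fnbp4*, 6 in *Fblim1*, 2 in *Dglucy* and 1 each in *Slc15a2* and *Fam214a*, where 0.326% of all 66468 tested introns were. These are the reads that chose the genes, so nothing is read from that share. With DESeq2 in place of edgeR the count over the 5 genes was 15, where 0.0617% of all introns were called higher. Leaving out any library also changed the count, but such a fit leaves 1 library in a group.

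**Figure D2:**
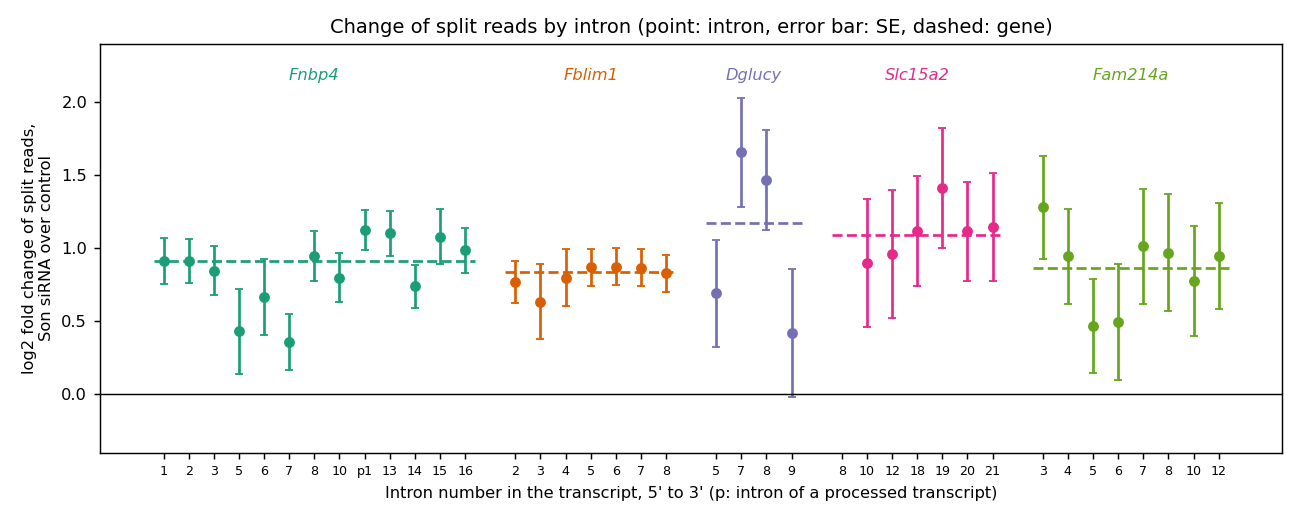
Log2 fold change of split reads at the 5′ junction (vertical axis, Son siRNA over control) for each intron of the 5 genes in order along the transcript (horizontal axis); points are introns, error bars standard errors, dashed lines the gene's own value. Every plotted point lies above 0, from 0.36 in Fnbp4 intron 7 to 1.66 in Dglucy intron 7, and Slc15a2 intron 8 has no point because it fell below the filter.

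Within *Fnbp4* introns 5, 6 and 7 moved least. Intron 7 of ENSMUST00000013759 (chr2:90588031-90588637, 607 nt) had 150 and 120 split reads in controls against 192 and 145 in the knockdown, a log2 fold change of 0.36 (standard error 0.189). The 103 nt intron 5 had a log2 fold change of 0.43 (standard error 0.293), while intron 13 (chr2:90606566-90606674, 109 nt) went from 285 and 215 reads to 519 and 504, a log2 fold change of 1.10 (standard error 0.154). Introns 5 and 13 are nearly the same length, and their changes differed by more than their standard errors added together. Intron 1 of the processed transcript ENSMUST00000135592 (chr2:90599045-90605093) had 497 and 332 split reads at its 5′ junction in controls and 915 and 805 in the knockdown. At its 3′ junction it had 19 and 18 in controls and 34 and 43 in the knockdown, so most reads that split at its 5′ site were not counted at its 3′ site. Both counts were higher in both knockdown libraries.

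In *Dglucy* the rise was largest in 2 adjacent introns of ENSMUST00000110073. Intron 7 (chr12:100807781-100808901) went from 21 and 12 split reads to 45 and 53, a log2 fold change of 1.66 (standard error 0.376), and intron 8 from 33 and 14 to 56 and 65, a log2 fold change of 1.47. Downstream of them, intron 9 (chr12:100811190-100816371) had 14 and 12 reads in controls against 20 and 14 in the knockdown, a log2 fold change of 0.42 (standard error 0.439) that its error covers. In *Slc15a2* (ENSMUST00000023616) the largest value was in intron 19 (chr16:36573502-36574057), with 12 and 17 reads against 34 and 41 and a log2 fold change of 1.42 (standard error 0.411). Intron 10 (chr16:36581837-36581925, 89 nt), at 0.90 (standard error 0.441), had the smallest tested value of that gene. In *Fam214a* (ENSMUST00000170846) intron 3 (chr9:74911732-74913569) went from 28 and 19 reads to 45 and 62, a log2 fold change of 1.28 (standard error 0.353). Introns 5 and 6 of the same transcript had 0.47 (standard error 0.323) and 0.50 (standard error 0.398). The standard errors in these 3 scarce genes, from 0.32 to 0.44, were large next to most differences between their introns.

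The 11 introns that were not listed in every library belonged to *Dglucy* (4), *Slc15a2* (4) and *Fam214a* (3). A junction was listed from 10 reads upward, and these introns were listed 4 and 3 times in the control libraries and 9 and 7 times in the knockdown libraries. *Dglucy* introns 1, 11 and 12 were listed in knockdown replicate 1 alone, at 8 to 19 split reads. The threshold of listing is a fixed number of reads, so whether an intron passes it moves with the level of the gene. These counts therefore add no separate measurement.

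Splicing efficiency is the share of an intron's junction reads that are split. Summed over introns, *Fnbp4* had 0.902 and 0.888 in controls and 0.938 and 0.931 in the knockdown. *Fam214a* had 0.871 and 0.804 against 0.907 and 0.918, and *Slc15a2* had 0.806 and 0.776 against 0.855 and 0.855. In these 3 genes both knockdown libraries were more efficient than both controls. In 2 of them the size of the difference depended on the junction: 0.0744 in *Fam214a* became 0.121 from 5′ junctions and 0.0244 from 3′ junctions, and 0.0409 without control replicate 2. In *Slc15a2* 0.0640 became 0.0384 from 3′ junctions. *Dglucy* had 0.891 and 0.789 against 0.877 and 0.892, which overlapped, and its mean difference of 0.0446 became −0.00629 without control replicate 2 and 0.0956 without control replicate 1. *Fblim1* had 0.974 and 0.967 against 0.964 and 0.964, with no overlap and a difference of −0.00657, which was −0.0381 as the mean over introns. Mean efficiency was higher in the knockdown in 31 of the 39 introns, against 41.8% of all 68322 introns. Both knockdown libraries were above both controls in 16 of the 39, where 13% of all introns were, and below both in 5, where 23.6% were. The choice of the genes shares the split reads with this measure, so these shares are set beside the counts and nothing is read from them.

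**Figure D3:**
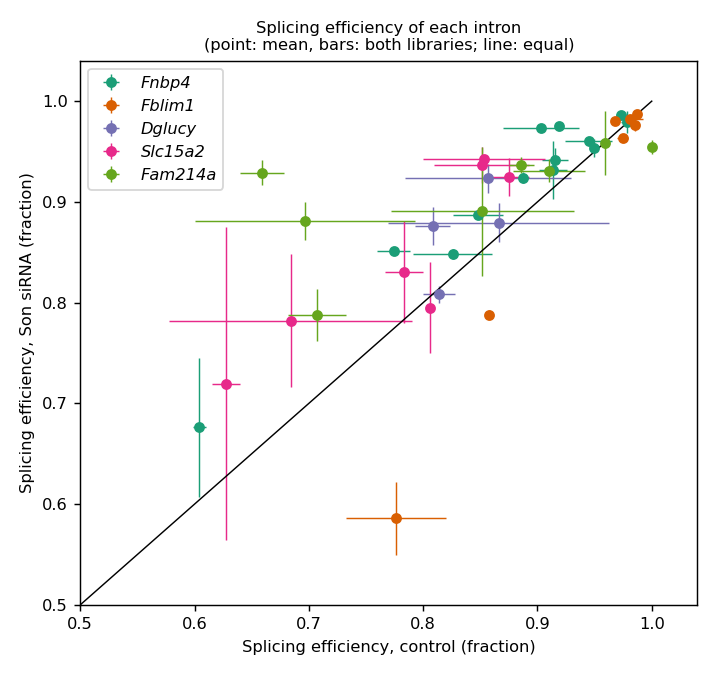
Splicing efficiency (fraction of junction reads that are split) of the 39 introns in control libraries (horizontal axis) and Son siRNA libraries (vertical axis); points are means of 2 libraries, bars run from one library to the other, and the line marks equal values. Most points lie on or above the line; the lowest orange point is Fblim1 intron 3, at 0.776 in controls and 0.586 in the knockdown.

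Of the 39 introns, 2 were called more efficient, both in *Fnbp4*, and 0 were called less efficient; over all 63309 introns tested the shares were 0.0442% and 1.71%. Intron 8 (chr2:90588849-90593764) had efficiencies of 0.936 and 0.870 in controls against 0.974 and 0.973 in the knockdown. Intron 13 had 0.919 and 0.919 against 0.977 and 0.974, with 50 and 38 unsplit reads in controls against 24 and 27 in the knockdown. These 2 introns thus lost unsplit reads while their split reads rose. The number called varied with the settings: 0 from 5′ junctions alone, 1 from 3′ junctions alone and 1 with DESeq2. *Fam214a* intron 6 (chr9:74917749-74920222) moved farther, from 0.679 and 0.640 to 0.941 and 0.917, with 18 and 18 unsplit reads in controls against 4 and 3 in the knockdown, and was not called.

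*Fblim1* was the 1 gene of the 5 whose unsplit reads were higher in both knockdown libraries than in both controls. Its unsplit reads over both junctions were 16.5 and 20.1 CPM in controls and 37.1 and 43.2 CPM in the knockdown, a ratio of 2.19 that stood at percentile 97.9 of 8864 genes. The ratio was 1.5 in *Dglucy* (percentile 87.3), 1.31 in *Slc15a2* (77.8), 1.12 in *Fnbp4* (57.6) and 0.936 in *Fam214a* (23.3), beside a median of 1.08 over all genes. In these 4 genes the control and knockdown libraries overlapped. At the 5′ junctions of *Fblim1* unsplit reads were 8.21 and 7.83 CPM in controls and 21.6 and 25.0 CPM in the knockdown, and at its 3′ junctions 8.28 and 12.3 against 15.5 and 18.2 CPM. The 5′ increase was largest in introns 3, 4 and 6. Both knockdown libraries were also above both controls in intron 7, at 1.22 and 1.44 CPM against 0.711 and 0.870 CPM. The same held in intron 8, at 0.474 and 0.674 CPM against 0.129 and 0.097 CPM. In the 4 introns other than 3, 4 and 6 no knockdown library was above 1.44 CPM at the 5′ junction.

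The first of the 3 with the largest increase, *Fblim1* intron 3 (ENSMUST00000006381, chr4:141317437-141322534, 5098 nt), had 44 and 18 unsplit reads at its 5′ junction in controls and 111 and 93 in the knockdown. Its 3′ junction had 2 and 2 unsplit reads in controls against 13 and 2 in the knockdown, so the added unsplit reads crossed the 5′ junction far more often than the 3′ junction. Its efficiency went from 0.733 and 0.820 to 0.622 and 0.550, although its split reads also rose, from 63 and 46 to 105 and 61. Intron 4 (chr4:141316727-141317254, 528 nt) had 39 and 28 unsplit reads at the 5′ junction in controls and 93 and 75 in the knockdown, with efficiencies of 0.854 and 0.861 against 0.784 and 0.792. Intron 6 (chr4:141310544-141312006) had 25 and 19 against 86 and 62, but with 655 to 1578 split reads per library its efficiency stayed between 0.959 and 0.979. In none of the 3 was the change in efficiency called. The sign of the gene's efficiency change depended on the junction, at −0.0158 from 5′ junctions alone and 0.00263 from 3′ junctions alone.

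**Figure D4:**
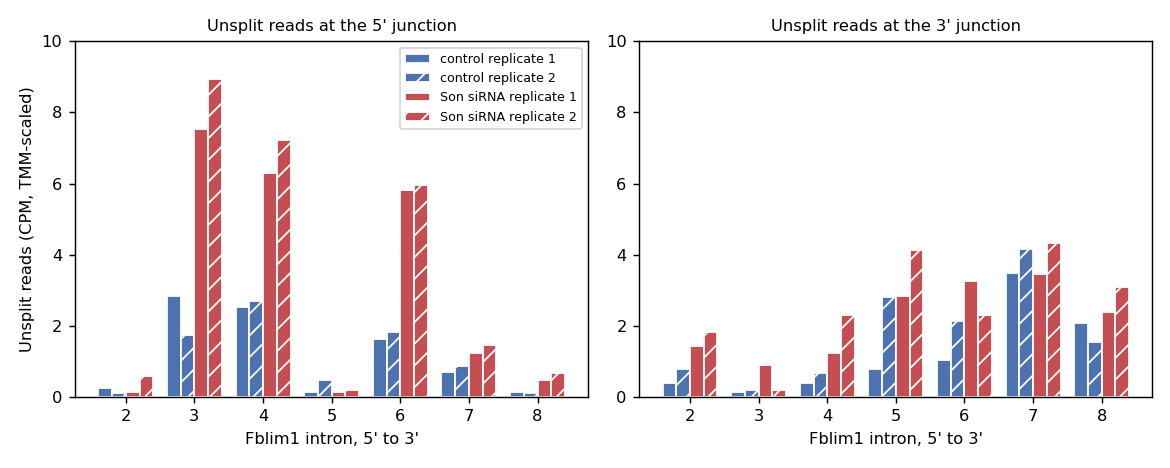
Unsplit reads (vertical axis, CPM after TMM scaling, from 0) at the 5′ junction (left) and 3′ junction (right) of each Fblim1 intron (horizontal axis), with 1 bar per total RNA library. At the 5′ junctions of introns 3, 4 and 6 the knockdown bars stand at 5.83 to 8.95 CPM and the control bars at 1.62 to 2.85 CPM, while the 3′ junctions of the same introns stay at or below 3.25 CPM.

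The long reads were not used to choose the genes. They come from 1 library per group, so each ratio compares 2 libraries with no replicate check, and its interval covers counting error only. *Fblim1* had 174 reads in the control and 134 in the knockdown, which scaled to 56.5 CPM (48.7 to 65.5) and 71.5 CPM (60.4 to 84.6), with 95% Wilson intervals. Its log2 ratio was 0.34 (exact binomial 95% interval 0.0036 to 0.67), above 0 but with an upper bound below the 0.84 of its spliced reads in total RNA. *Fnbp4* had 76 and 62 reads, 24.7 CPM (19.7 to 30.9) and 33.1 CPM (25.8 to 42.4), and a log2 ratio of 0.42 (−0.09 to 0.93). Its interval held both no change and the 0.91 of total RNA. *Dglucy* with 9 and 11 reads had a log2 ratio of 0.99 (−0.40 to 2.45), and *Fam214a* with 12 and 13 reads had 0.83 (−0.42 to 2.09). *Slc15a2* had 9 reads in the control and 3 in the knockdown, a log2 ratio of −0.72 (−3.39 to 1.13), so its direction could not be read at this depth.

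Adding both libraries, 4 of the 5 genes had 20 or more long reads, and these 4 had a ratio above 1, where 48.9% of 9646 genes did. Of these 4, *Dglucy* and *Fam214a* were past 1.5-fold, where 8.56% of genes were, and those 2 were also the genes with the widest intervals of the 4. The median log2 ratio over all these genes was −0.01. Each library was scaled to its own total, so this median cannot show whether the amount of RNA changed.

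**Figure D5:**
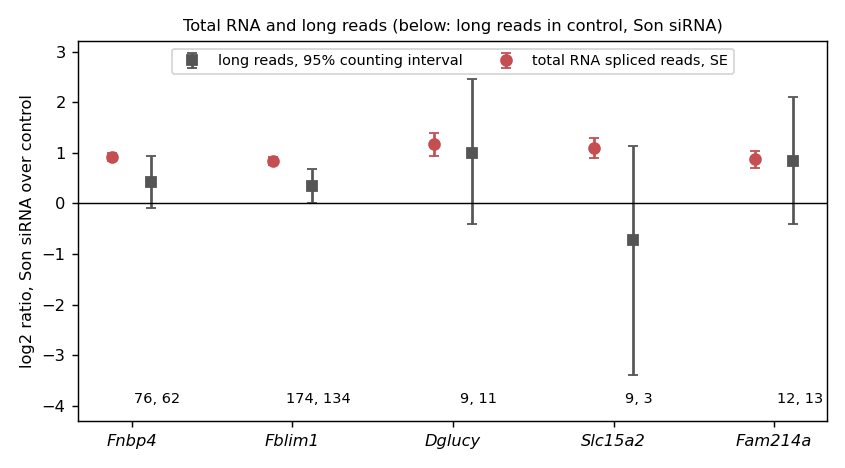
Log2 ratio of Son siRNA over control (vertical axis) for the 5 genes: circles are spliced reads in total RNA with standard errors, squares are long reads with 95% counting intervals, and the numbers below are long reads in the control and the knockdown. The squares of Fnbp4 and Fblim1, at 0.42 and 0.34, lie below their circles, and that of Slc15a2, with 9 and 3 reads, lies below 0 with an interval from −3.39 to 1.13.

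The long reads also separate transcripts. In *Fblim1*, ENSMUST00000006381 went from 55 to 51 reads, a log2 ratio of 0.61 (0.03 to 1.18) after scaling. ENSMUST00000105784 went from 87 to 62 reads (log2 ratio 0.23, −0.27 to 0.71) and ENSMUST00000105785 from 24 to 12 (−0.25, −1.42 to 0.77). The 3 coding transcripts thus had intervals that overlapped one another, and a different response between them was not detectable at this depth. In *Fnbp4*, ENSMUST00000013759 went from 34 to 32 reads (log2 ratio 0.63, −0.11 to 1.37) and ENSMUST00000238890, which has the same deposited length of 4691 nt, from 37 to 27 (0.27, −0.51 to 1.02). These 5 transcripts were the ones with at least 20 reads, and 2 of them were past 1.5-fold, where 12% of 13807 transcripts were. *Fnbp4* reads assigned to ENSMUST00000135592, the processed transcript whose intron was listed in total RNA, were 2 and 0. *Fblim1* ENSMUST00000129602, a 480 nt coding model picked out after its values were seen, had 0 reads in the control and 5 in the knockdown.

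The scarcer genes had no transcript with 20 long reads. *Fam214a* ENSMUST00000170846 had 7 and 7 reads and ENSMUST00000215370 had 2 and 4. *Dglucy* ENSMUST00000069782 had 3 and 4, ENSMUST00000110069 had 1 and 4, and ENSMUST00000110073 had 3 and 0. *Slc15a2* ENSMUST00000023616 had 4 and 1. These counts say which models were detected and give no order between the libraries.

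Genes of the systems in which these proteins act are set beside all tested genes, of which 1.96% were called higher and 6.76% lower. Of 15 formins and formin-binding genes 14 were tested, 1 was called higher and 0 lower: *Fmnl2*, a formin of cell protrusions, had 92.5 and 91.6 CPM of spliced reads in controls and 124 and 128 CPM in the knockdown (log2 fold change 0.45, edgeR adjusted p = 0.001915). The median log2 fold change of the 14 was −0.0015, beside 0.0054 over all tested genes. Of 25 migfilin partners and integrin adhesion genes 23 were tested, with a median of 0.0010, and 2 were called in each direction. *Flna*, which codes for the filamin that migfilin binds, went from 1324 and 1359 CPM to 953 and 958 CPM (−0.49, edgeR adjusted p = 1.784e-05), and 15 of its introns were called less efficient. *Tln1*, the integrin activator talin, had −0.48 (edgeR adjusted p = 0.0001037), while *Itgav*, an integrin alpha chain, had 0.36 (0.01621) and *Flnc*, another filamin, 0.33 (0.03506). The partner filamin and migfilin itself therefore moved in opposite directions.

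Of 10 peptide transport and peptide-handling genes 7 were tested with a median of −0.06, and 1 was called, lower: *Dpp7*, a dipeptidyl peptidase, at −0.39 (edgeR adjusted p = 0.03522). *Slc15a1* and *Slc15a4*, carriers of the same family as *Slc15a2*, had −0.41 (standard error 0.150) and −0.06 (0.141), and neither was called. Of 15 genes of D-amino acid and glutamate metabolism 12 were tested with a median of −0.13, with 2 called higher and 1 lower. *Gclm* and *Gclc*, the subunits of the enzyme that starts glutathione synthesis from glutamate, had 0.57 (edgeR adjusted p = 0.0002194) and 0.34 (0.01802). *Got1*, the cytosolic aspartate aminotransferase, had −0.67 (2.299e-06). *Fam214b*, the paralog of *Fam214a*, had −0.46 (standard error 0.174, edgeR adjusted p = 0.1214) and was not called.

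By the distance of centred log2 CPM over the 4 total RNA libraries, among 7383 genes with a mean of at least 100 reads, the gene nearest to both *Fnbp4* (0.118) and *Fblim1* (0.100) was *Tada1*. *Tada1* had 16.2 and 16.9 CPM in controls and 27.5 and 30.7 CPM in the knockdown. *Spata31d1b* was nearest to *Dglucy* (0.391) and to *Fam214a* (0.148), and *Ceacam20* to *Slc15a2* (0.378). The distances rest on 4 libraries, and the smaller the distance, the more alike the pattern.

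The 5 genes shared little in chromosome, intron length and promoter sequence, which the choice did not use. They lie on 5 chromosomes, and their median intron lengths of 556 to 2564 nt fell between percentiles 23.7 and 79.0 of the tested genes. Control splicing efficiency shares split reads with the choice, so nothing is read from it. It was high in *Fblim1* (percentile 84.6) and low in *Slc15a2* (8.40), *Fam214a* (15.1), *Dglucy* (15.6) and *Fnbp4* (28.6). In RefSeq (GRCm38.p6), all 5 matched a promoter window of 250 bases before to 50 after the start, some with several starts. CpG observed over expected was 1.13 in *Fnbp4* and 0.744, 1.20 and 0.510 at the 3 starts of *Fam214a*, against a median of 0.384 over all 32851 windows. It was 0.394 and 0.409 at the 2 starts of *Fblim1*, 0.334 in *Slc15a2* and 0.143 in *Dglucy*, so the windows ranged from CpG-rich to CpG-poor.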

How the data were processed

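Per the labels, the authors made the total RNA tables with SPLICE-q: the deposited values are counts, for each intron and each of its 2 junctions, of reads that are split or unsplit, and a score. Recomputed from the counts, this deposited score is the fraction of junction reads that are split, and no listed junction had fewer than 10 reads. For the long reads the deposited values are counts of reads per transcript, per the labels. The submitters' processing notes name minimap2, SAMtools and GRCm39 with no role; versions, annotation and SPLICE-q settings are not given in the sources used here. All 200 compared intron entries of the 5 genes had the same length in GENCODE M21 (GRCm38) and 0 the same position, so positions are as deposited and M21 gave only names, transcript types and exon sequences.

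Introns repeated for several transcripts were counted once. Split reads at 5′ junctions were summed over each gene's introns listed in all 4 libraries, leaving out the 681 introns listed under more than 1 gene, and tested with edgeR 4.0.16 in R 4.3.3 (quasi-likelihood, TMM, default expression filter, Benjamini-Hochberg over all features, threshold 0.05). Introns were tested in the same way. Splicing efficiency was tested from a split and an unsplit column per library, for introns with at least 10 reads of each kind, with terms for library, unsplit reads and unsplit reads in the knockdown. Called means an adjusted p under 0.05. Reads crossing an intron enter at its 2 ends, and reads crossing several introns enter at each, so sums over introns exceed the number of separate reads. Scaling of long reads was by library total, with a pseudocount of 0.5 reads in ratios, a minimum of 20 reads over both libraries and intervals from scipy 1.17.1. Replicate numbers come from the sample titles; deviations of same-numbered libraries from their group means correlated at 0.00166 over 9474 genes, so the numbers were not taken as pairs. Alternatives were DESeq2 1.42.0, other scaling, filters, junctions and intron sets, and each library left out.

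The genes named are the 5 genes themselves, *Son*, the next 2 genes in order, the nearest gene in pattern and up to 3 called genes per list by adjusted p; other genes were named as family members or neighbours after their values were seen. The 5 genes and the lists were chosen with earlier results of these data known. No table of other samples was used.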

Additional observations from a re-analysis of the deposited data

How the results depend on the processing

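The 5 genes had a log2 fold change above 0 in each of the 11 alternatives, from 0.66 (*Fam214a* without knockdown replicate 2) to 1.45 (*Dglucy* from its best covered intron). With 2 libraries per group they were called in each alternative except those that changed the introns summed. *Slc15a2* and *Fam214a* were not called from the best covered intron alone. *Fam214a* was not called when introns listed in any library were used. That setting counted an intron as 0 in a library that did not list it, although listing began only at 10 reads. *Dglucy* then had a log2 fold change of 1.41 in place of 1.17. All these fits use the reads that chose the genes, so nothing is read from these signs and calls. Over all genes, 186 were called higher, 37 from the best covered intron and 38 from introns listed in any library, which were 22.5%, 12.8% and 10.5% of all calls in either direction. Leaving out each library gave 37 to 906 genes. For split reads of single introns 217 were called higher, 41 with DESeq2 and 25 to 2757 with a library left out. For lower splicing efficiency 1084 introns were called, 231 from 5′ junctions alone, 319 from 3′ junctions alone, 292 with DESeq2 and 163 to 1394 with a library left out. With the replicate block 254 genes were called higher, 246 introns were called higher in split reads and 1580 introns lower in efficiency. The replicate numbers were not taken as pairs, a choice that rests on the correlation of spliced reads alone and cannot settle whether they are. All 5 genes were still called with the block, and the count of their introns called higher went from 20 to 21. Among introns of the 5 genes with at least 50 split reads in every library, both knockdown libraries were above both controls in 17 of 17. These reads chose the genes, and no share over all introns of that depth is given, so nothing is read from this count. Without the minimum of 20 long reads, 3648 genes were past 1.5-fold in place of 826. The settings also differ in the reads or libraries that they leave, and the cause of these differences was not tested. Depth limited the long reads: 3 of the 5 genes had 25 or fewer reads over both libraries.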

Other observations

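Of the 10 tested genes that flank the 5 on their chromosomes, by the order of the GENCODE M21 annotation, 1 was called higher and 1 lower in spliced reads, where 1.96% and 6.76% of all tested genes were. *Nup160* and *Mtch2*, on either side of *Fnbp4*, had log2 fold changes of −0.05 (standard error 0.068) and −0.04 (0.075). *Spen*, a neighbour of *Fblim1*, had 0.03 (0.085), while *Plekhm2* on its other side was called lower, at −0.73 (0.218; edgeR adjusted p = 0.03868). Beside *Dglucy*, *Ccdc88c* was called higher at 0.30 (0.083; edgeR adjusted p = 0.02697), and *Rps6ka5* had 0.63 (0.217; edgeR adjusted p = 0.08374) and was not called. *Ildr1* and *Iqcb1*, the neighbours of *Slc15a2*, had −0.08 (0.096) and 0.09 (0.131), and *Pigb* and *Arpp19*, the nearest tested genes on either side of *Fam214a*, had 0.35 (0.157) and −0.06 (0.121).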
